A study of Mus musculus with 12 samples.

Results

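The subunits of oxidative phosphorylation were followed in RNA of mouse ear skin after injection of IL-17A, IL-36γ or both. Members were taken by symbol: genes beginning with Nduf, Uqcr, Cox4, Cox5, Cox6, Cox7, Cox8 or Atp5, the 4 succinate dehydrogenase genes, Cyc1 and the 13 protein genes of the mitochondrial genome. Of 112 nuclear genes taken this way, 17 were annotated as pseudogenes and were left out. The set then held 108 of the 50684 genes of the count table, 95 nuclear and 13 mitochondrial. The nuclear members were 39 genes of complex I, 4 of complex II, 9 of complex III, 18 of complex IV, 17 of ATP synthase and 8 assembly factors that carry the Nduf prefix. The rule itself uses symbols and no measured value.

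Oxidative phosphorylation is the last stage of respiration. Complexes I and II pass electrons to ubiquinone, complex III passes them to cytochrome c, and complex IV (cytochrome c oxidase) passes them to oxygen. The proton gradient built on the way drives ATP synthase. Most subunits are encoded in the nucleus, translated in the cytosol and imported, while a few core subunits of complexes I, III, IV and ATP synthase are encoded in the mitochondrial DNA and translated inside the organelle. The 2 sets of mRNA therefore come from separate genomes and separate polymerases, and a complex needs both. Complex II alone is wholly nuclear.

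The mice were 8-week-old female C57BL/6 animals that received intradermal injections into the ear pinna on 4 consecutive days. The PBS group received the vehicle, the IL-17A and IL-36γ groups received 1 µg of the recombinant murine cytokine in 5 µL, and the IL-17A + IL-36γ group received both. Libraries of 3 mice per group, drawn at random from 5, were sequenced from rRNA-depleted total RNA, and totals lay between 25293468 and 34759293 counts. The tissue was whole ear, so the cells of a library were mixed. Keratinocyte markers (Krt5, Krt14, Krt1, Krt10, Trp63, Dsp) summed to 15823 to 21438 CPM (counts scaled to library size) in the PBS libraries, 21771 to 23822 in those of IL-17A, 26429 to 34901 in those of IL-36γ and 32403 to 38576 in those of both, so the epidermis was present in each library. The 7 neutrophil markers summed to 13.1 to 88.8 CPM after PBS, 378 to 867 in the IL-17A group, 2276 to 4829 in the IL-36γ group and 7602 to 10030 in the group of both. The 11 skeletal muscle markers ranged from 268 to 3466 CPM and were lowest in PBS replicate 1 and in IL-17A + IL-36γ replicates 1 and 2. After both cytokines, 6 of 6 adipocyte and 4 of 4 tested cartilage markers were lowered, where 20.9% of all genes were. The part of such shifts in the results below was not tested. In bulk RNA, a change in the number of cells of a type and a change in RNA per cell cannot be told apart.

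Of the 13 mitochondrial genes, only 7 could be read from the counts. mt-Co1 held 141958 to 200074 counts per library, mt-Nd1 27436 to 52649 and mt-Cytb 24520 to 47969. In contrast, mt-Co2 held 12 to 34 counts, mt-Co3 18 to 42, mt-Nd3 15 to 35, mt-Atp6 6 to 19, and mt-Atp8 and mt-Nd4l 0 to 5 each. These genes lie between mt-Co1 and mt-Nd4, and a copy of this part of the mitochondrial genome is annotated on chromosome 1 (GRCm38, minus strand, 24611535 to 24616197) as Gm29216, Gm28661, Gm10925, Gm28437, Gm28438 and Gm28439. A pair of sequences is shown for each of 2 genes to make the likeness visible. In each line the part transcribed as mRNA is printed from its first base, 60 bases long, and a capital marks the base at which gene and copy differ.
mt-Co2 (chrM:7013-7072, plus strand): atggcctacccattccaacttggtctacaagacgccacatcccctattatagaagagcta
Gm28661 (chr1:24615506-24615565, minus strand): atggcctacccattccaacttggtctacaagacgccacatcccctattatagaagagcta
mt-Nd3 (chrM:9459-9518, plus strand): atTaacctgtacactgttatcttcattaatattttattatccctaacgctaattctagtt
Gm28438 (chr1:24613060-24613119, minus strand): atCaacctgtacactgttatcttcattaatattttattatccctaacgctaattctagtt
Over their whole alignments, mt-Co2 and Gm28661 were identical along 681 bases, mt-Atp6 and Gm10925 along 678, mt-Co3 and Gm28437 along 783, and mt-Nd4 and Gm28439 along 876. mt-Nd3 and its copy differed once in 345 bases (T3C, counted from the first base of the gene).

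Reads were 76 bases long, and a read that matches 2 places equally well is not assigned to either under the default of the counting tool. The setting used was not given in the sources used here. All 76-base windows of the annotated transcripts were therefore compared between genes. In mt-Co2 99.5% of windows were also found in another gene, in mt-Atp6 99.5%, in mt-Co3 99.9%, in mt-Nd3 97.8% and in mt-Nd4l 98.6%. The share was 61.5% in mt-Nd4 and 39.4% in mt-Co1, and where along these genes their reads fell was not examined. It was under 6% in mt-Nd1, mt-Nd2, mt-Nd5, mt-Nd6 and mt-Cytb. mt-Atp8 shared no window with another annotated transcript and was also close to 0. Only annotated transcripts were compared, and the chromosome 1 copies of its neighbours mt-Atp6 and mt-Co2 leave a gap (Gm10925 to 24614651, Gm28661 from 24614885). Whether the gap holds a copy of mt-Atp8 was not examined. The copies themselves held at most 84 counts in a library. For mt-Co2, mt-Co3, mt-Atp6, mt-Atp8, mt-Nd3 and mt-Nd4l the counts are thus not a measure of the mRNA, and no level is read from them below. Of the nuclear members, 42 shared some window with another gene, but only Ndufaf2 shared over 50% (63.2%).

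**Figure D1:**
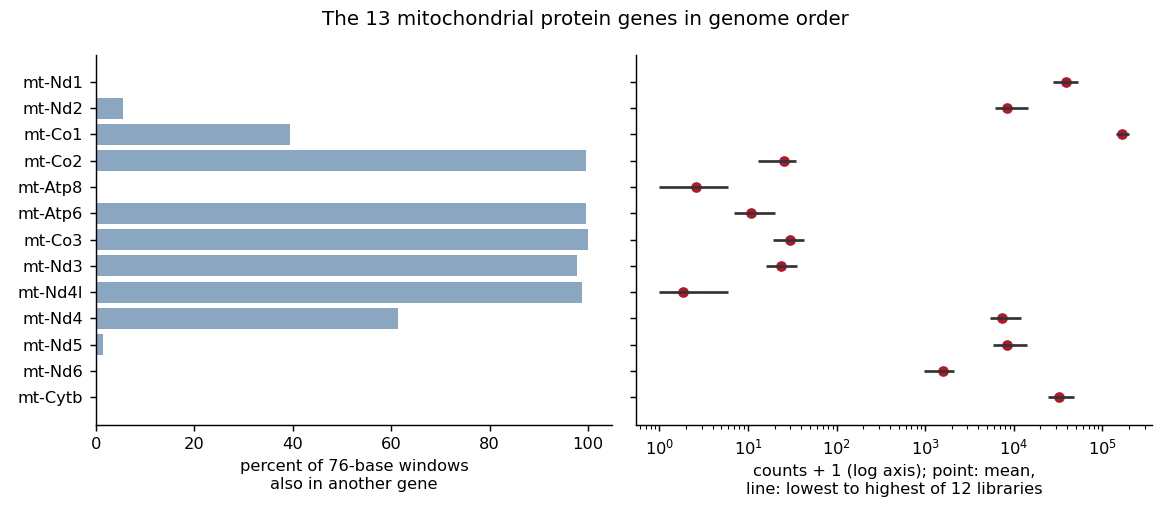
The 13 mitochondrial protein genes in genome order, with the percent of 76-base windows shared with another gene (left) and the counts per library plus 1 on a log axis (right; point, mean; line, lowest to highest of 12 libraries). The genes at 97.8% or more shared windows, and mt-Atp8, lie at 42 counts or fewer, while the other 7 lie at 968 or more.

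Summed over each genome, both sets of mRNA took a larger share of the libraries after each treatment than after PBS, but in a different order. The 95 nuclear genes took 0.679%, 0.659% and 0.646% of counts in the 3 PBS libraries (0.661% ± 0.0169, SD, n = 3). With IL-17A they took 0.751% ± 0.0122, with IL-36γ 0.772% ± 0.0244 and with both 0.831% ± 0.0346 (SD, n = 3 each). No treated library lay within the range of PBS, and the libraries after both cytokines lay above those of either alone.

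The 13 mitochondrial genes took 0.717%, 0.764% and 0.717% of counts after PBS. They took 1.20%, 1.01% and 0.970% after IL-17A, 0.924%, 0.855% and 0.878% after IL-36γ, and 0.838%, 0.908% and 0.860% after both. The IL-17A libraries were the highest, those of the other 2 treatments overlapped, and all 9 treated libraries were above PBS. The log2 ratio of mitochondrial to nuclear counts was 0.15 ± 0.07 after PBS, 0.49 ± 0.16 in the IL-17A group, 0.20 ± 0.07 in the IL-36γ group and 0.06 ± 0.11 in the group of both (SD, n = 3 each). These sums were not tested, since members were chosen with earlier results known. mt-Co1 alone made up 58.3% to 66.5% of the mitochondrial mRNA counts, so the sum mainly follows this gene.

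The mitochondrial rRNA left after depletion moved in a similar way in the IL-17A group. It took 2.86%, 2.39% and 2.72% of counts after PBS and 4.47%, 3.54% and 3.33% after IL-17A. It took 2.34% to 2.81% after IL-36γ and 2.27% to 2.57% after both. IL-17A replicate 1 was the highest library for mitochondrial rRNA and for mitochondrial mRNA. Since the kit removes rRNA, this share also depends on depletion, and its part in the results was not tested.

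**Figure D2:**
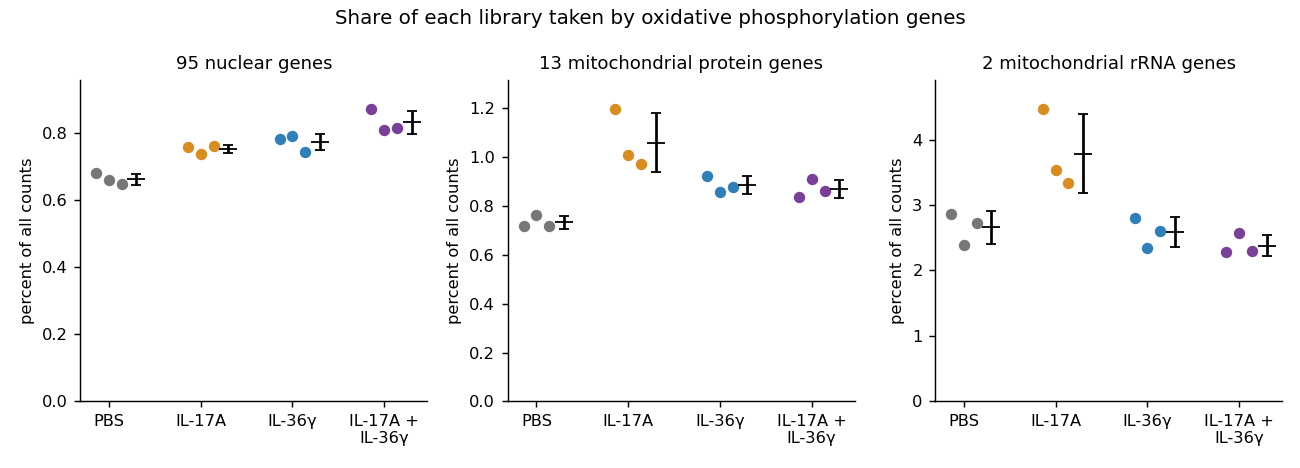
Percent of all counts per library taken by the 95 nuclear genes, the 13 mitochondrial protein genes and the 2 mitochondrial rRNA genes, by group (points, mice; bars, mean ± SD, n = 3). Nuclear genes are highest after both cytokines (0.831%), mitochondrial mRNA and rRNA after IL-17A (1.06% and 3.78%).

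Gene by gene, 92 nuclear members passed the filter on low counts. Ndufb11b, Cox7b2 and Cox8c, the last 2 known as testis-type subunits, held 0 to 1 count per library and were not tested. The test was the quasi-likelihood test of edgeR on 4 group means, with Benjamini-Hochberg adjustment over 19408 genes. After IL-17A, 59 of 92 nuclear members were raised at an adjusted p below 0.05 and none was lowered, where 7.44% of all tested genes were raised and 3.49% lowered. Their median log2 fold change was 0.38, against 0.04 over all genes, and all 92 were above 0, as were 10786 of 19408 genes. In 78 of the 92, all 3 IL-17A libraries lay above all 3 PBS libraries, as in 19.6% of all genes. The highest among those called were Atp5mpl, a small subunit of ATP synthase (log2 fold change 0.65 ± 0.11, SE, adjusted p = 0.0126), Uqcr10 of complex III (0.59 ± 0.13, 0.0247), Ndufc2 of complex I (0.58 ± 0.11, 0.0178) and Atp5md of ATP synthase (0.58 ± 0.10, 0.0151). No nuclear member changed 2-fold, as did 2.1% of all genes.

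The number of calls after IL-17A depended on single libraries, while the direction did not. The count was 0 when only the PBS and IL-17A libraries were fitted, with 74 members at an unadjusted p below 0.05, 90 of 92 above 0 and 0.0906% of all genes raised. Leaving out PBS replicate 3 or IL-17A replicate 1 also gave 0, and the count was 13 without PBS replicate 2, 28 without IL-17A replicate 2 and 37 without IL-17A + IL-36γ replicate 2. DESeq2 called 70 raised in the 12 libraries. Between 89 and 92 of 92 lay above 0 in each fit that left out 1 library.

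After IL-36γ, 60 of 92 nuclear members were raised and none was lowered (17.3% and 11.1% of all genes). The median was 0.34, against -0.02 over all genes, and 64 members had all 3 libraries above PBS (22.4% of all genes). Ndufa4l2 led (1.32 ± 0.31, adjusted p = 0.00836) and was the 1 member changed 2-fold (7.1% of all genes). It was followed by Atp5mpl (0.83 ± 0.11, 0.000296), Ndufa4 (0.82 ± 0.13, 0.00105) and Cox6b1, a subunit of complex IV on the side of the intermembrane space (0.62 ± 0.09, 0.000811). The count fell to 39 without PBS replicate 3 (10.2% of all genes raised) and to 39 without IL-36γ replicate 1 (10.9%).

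After both cytokines, 70 of 92 were raised (23.7% of all genes) and 2 were lowered (20.9% of all genes). The median was 0.39, against -0.03 over all genes, and 72 members had all 3 libraries above PBS (27% of all genes). Ndufa4l2 (1.51 ± 0.31, adjusted p = 0.00204) and Ndufa4 (1.02 ± 0.13, 0.000113) were raised beyond 2-fold and Cox7a1 was lowered beyond it (-1.58 ± 0.53, 0.0311), where 13.4% of all genes changed 2-fold. Next came Atp5mpl (0.94 ± 0.11, 5.61e-05) and Uqcrq of complex III (0.88 ± 0.14, 0.000401). Cox4i2 was the other lowered member (-0.60 ± 0.22, 0.0407). These 3 comparisons share the PBS libraries, so their likeness is not evidence of a common response.

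**Figure D3:**
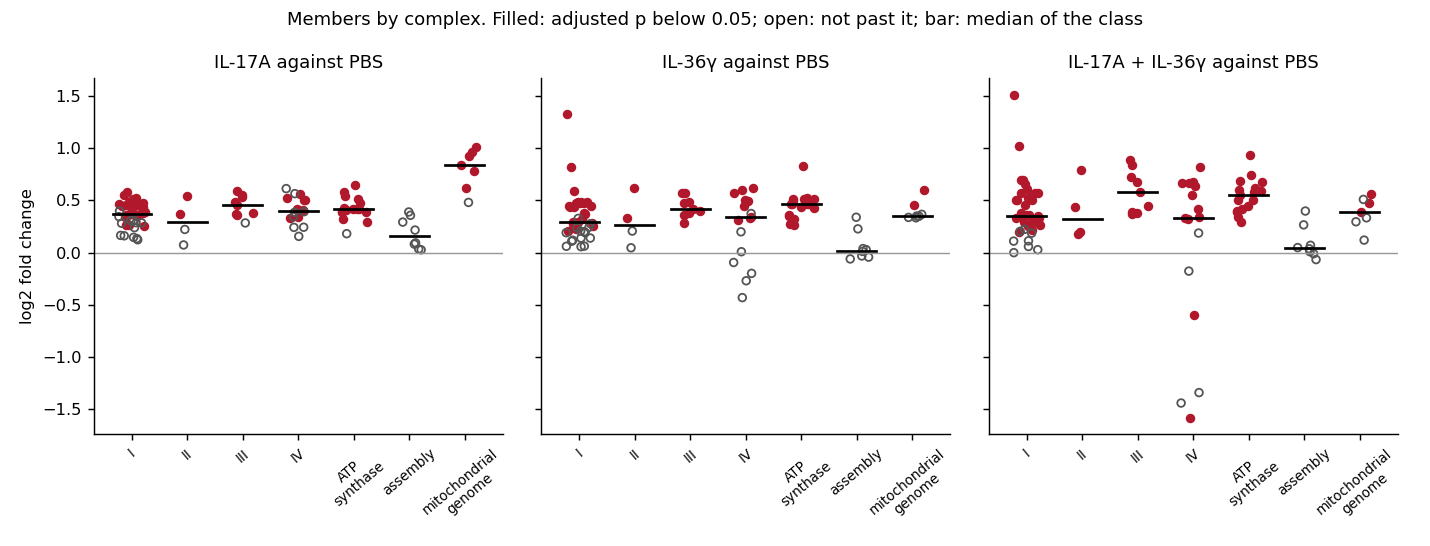
Log2 fold change of each tested nuclear member by complex, and of the 7 readable mitochondrial genes, in the 3 comparisons with PBS (filled, adjusted p below 0.05; open, not past it; bar, median). The mitochondrial genes have a median of 0.84 after IL-17A and 0.39 after both, and the 8 assembly factors have open symbols in each panel.

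Complex I takes electrons from NADH. Of 38 tested nuclear genes with the prefix, 25, 23 and 30 passed as raised in the comparisons of IL-17A, IL-36γ and both with PBS, and none as lowered. The medians were 0.37, 0.29 and 0.35. Ndufv1, the flavoprotein that binds NADH, was measured at 97.3, 93.7 and 94.96 CPM after PBS and at 127, 117 and 117 CPM after both. The groups did not overlap, and the log2 fold change was 0.33 ± 0.06 (adjusted p = 0.00117). It was also raised after IL-36γ (0.21 ± 0.06, 0.0272), and after IL-17A it was 0.17 ± 0.06 (0.0963). Ndufs1, the largest iron-sulphur subunit, rose after both (0.20 ± 0.06, 0.02), with values of 0.16 ± 0.06 (0.0989) after IL-17A and 0.11 ± 0.06 (0.194) after IL-36γ. The accessory subunit Ndufc2 rose by 0.58 to 0.69 in the 3 comparisons.

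Ndufa4 carries a complex I name but is now counted as a subunit of cytochrome c oxidase, and Ndufa4l2 is its relative known for induction by hypoxia. Ndufa4 was measured at 122, 105 and 98.5 CPM after PBS, 161, 147 and 169 after IL-17A, 200.2, 194 and 180.3 after IL-36γ, and 262, 175 and 226 after both. All treated libraries were above PBS. The log2 fold changes were 0.55 ± 0.13 (adjusted p = 0.0273), 0.82 ± 0.13 (0.00105) and 1.02 ± 0.13 (0.000113). Ndufa4l2 was measured at 11.3, 9.57 and 12.0 CPM after PBS, 21.2, 11.2 and 10.98 after IL-17A, 37.6, 21.3 and 23.4 after IL-36γ, and 44.4, 24.9 and 24.7 after both. The IL-17A libraries overlapped PBS (0.40 ± 0.31, adjusted p = 0.404), and 1 library in each treated group was far above its partners. Per kilobase of exon, Ndufa4l2 made up 11.4% ± 1.70 of the pair after PBS, 10.2% ± 3.55 in the IL-17A group, 15.1% ± 3.599 in the IL-36γ group and 15.0% ± 2.75 in the group of both (SD, n = 3), and these ranges overlapped.

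Complex II, succinate dehydrogenase, links the tricarboxylic acid cycle to the chain. Sdhb, its iron-sulphur subunit, was raised after IL-17A (0.37 ± 0.07, adjusted p = 0.0174), IL-36γ (0.33 ± 0.07, 0.00597) and both (0.44 ± 0.07, 0.000543). Sdhd, a membrane anchor, moved most: 60.4, 55.7 and 54.0 CPM after PBS, 90.4, 78.6 and 78.3 after IL-17A, 86.4, 94.6 and 80.3 after IL-36γ, and 103, 102 and 90.2 after both. PBS lay below all other groups, with log2 fold changes of 0.54 ± 0.09 (0.0122), 0.62 ± 0.09 (0.000498) and 0.80 ± 0.09 (4.53e-05). Sdha, the flavoprotein that oxidizes succinate, was at 169, 185 and 184 CPM after PBS and 211, 196 and 201 after both (0.18 ± 0.06, 0.0291). It was at 0.07 ± 0.06 (0.418) after IL-17A and 0.05 ± 0.06 (0.573) after IL-36γ. The other anchor, Sdhc, rose after both (0.20 ± 0.07, 0.0416), with 0.22 ± 0.07 (0.0669) after IL-17A and 0.21 ± 0.07 (0.051) after IL-36γ. Sdhd and Sdhb thus passed the test in each comparison, and Sdha and Sdhc in that with both cytokines.

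Complex III, ubiquinol-cytochrome c reductase, had 8 of 9 members raised by IL-17A and 9 of 9 in each of the other comparisons, with medians of 0.45, 0.42 and 0.58. Cyc1, which carries cytochrome c1, was measured at 64.7, 61.5 and 55.8 CPM after PBS, 86.6, 72.7 and 76.6 after IL-17A, 87.9, 89.4 and 75.1 after IL-36γ, and 114, 95.7 and 90.4 after both. Each treated library was above PBS (0.37 ± 0.10, adjusted p = 0.0437; 0.47 ± 0.10, 0.00669; 0.72 ± 0.10, 0.000249). Uqcrfs1, the Rieske iron-sulphur protein, rose by 0.45 ± 0.08 (0.0151), 0.36 ± 0.08 (0.00699) and 0.39 ± 0.08 (0.00224). The core protein Uqcrc1 was the member not past the test after IL-17A (0.28 ± 0.09, 0.0553), and it rose after IL-36γ (0.42 ± 0.09, 0.005) and both (0.58 ± 0.09, 0.000309).

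In complex IV, 8 of 16 tested nuclear members were raised in the IL-17A group, 9 in the IL-36γ group and 10 in that of both. Cox5a, a widely expressed structural subunit, was measured at 55.2, 52.6 and 44.95 CPM after PBS and rose by 0.52 ± 0.09 (adjusted p = 0.0131), 0.57 ± 0.09 (0.000772) and 0.67 ± 0.09 (0.000126). Cox4i1, the common form of subunit 4, rose by 0.33 ± 0.08 (0.0304), 0.32 ± 0.08 (0.0133) and 0.33 ± 0.08 (0.00575). Cox6b1 was measured at 101, 83.1 and 80.9 CPM after PBS and at 165, 153 and 152 after both (0.82 ± 0.09, 6.07e-05), and these groups did not overlap. Cox7a2l, a factor that joins complexes III and IV into supercomplexes, was at 111, 102 and 104 CPM after PBS and 95.1, 91.2 and 95.1 after both (-0.18 ± 0.09, 0.113). It did not pass the test against PBS in any group.

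ATP synthase was raised in 16 of 17 members by IL-17A and in 17 of 17 by each of the other treatments. The medians were 0.42, 0.46 and 0.55. Atp5b, the catalytic beta subunit, was measured at 622, 571 and 554 CPM after PBS, 689, 705 and 748 after IL-17A, 847, 863 and 779 after IL-36γ, and 1013, 897 and 873 after both. The 4 groups were apart in this order, and the log2 fold changes were 0.29 ± 0.08 (adjusted p = 0.045), 0.51 ± 0.08 (0.00124) and 0.67 ± 0.08 (0.000101). Atp5a1, the alpha subunit, was the exception after IL-17A (0.18 ± 0.07, 0.117), and it rose after IL-36γ (0.32 ± 0.07, 0.0075) and after both (0.42 ± 0.07, 0.000778). Atp5mpl was measured at 30.8, 24.6 and 23.9 CPM after PBS, and at 53.1, 48.9 and 49.8 after both. All 9 treated libraries were above PBS for this gene.

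The 8 genes Ndufaf1 to Ndufaf8 help to build complex I and are not part of the finished complex. None of them passed the edgeR test in the 3 comparisons with PBS, with 2, 1 and 1 at an unadjusted p below 0.05. Their median log2 fold changes were 0.15, 0.02 and 0.04, beside 0.37, 0.29 and 0.35 for complex I. The highest were Ndufaf8 after IL-17A (0.39 ± 0.15, adjusted p = 0.0984) and Ndufaf2 after both (0.40 ± 0.15, 0.0511). Their levels per kilobase after PBS were low, 2.45 to 8.56 RPKM (CPM per kilobase of exon), against a median of 27.1 RPKM for complex I.

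Mean levels of 6 of the 7 readable mitochondrial mRNAs were highest after IL-17A alone, and that of mt-Nd6 after both. After IL-17A, 6 of 11 tested mitochondrial genes were raised (7.44% of all genes), namely all readable genes but mt-Nd6. The median over the 7 readable ones was 0.84. mt-Nd5, a proton-pumping subunit of complex I, was measured at 197, 202 and 175 CPM after PBS, 534, 353 and 269.7 after IL-17A, 314, 258 and 298 after IL-36γ, and 260.0, 328 and 258 after both. All treated libraries were above PBS, and IL-17A replicate 1 was far above the rest. The log2 fold changes were 1.01 ± 0.20 (adjusted p = 0.0178), 0.60 ± 0.20 (0.0395) and 0.56 ± 0.20 (0.036).

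mt-Co1, the catalytic subunit of complex IV, was measured at 4205, 4536 and 4303 CPM after PBS. It was at 7517, 6266 and 6248 CPM after IL-17A, 6510, 5570 and 5773 after IL-36γ, and 5655, 5687 and 5746 after both. It was raised in all 3 comparisons (0.62 ± 0.10, adjusted p = 0.0132; 0.45 ± 0.10, 0.00817; 0.39 ± 0.10, 0.0101). mt-Cytb, the only mitochondrial subunit of complex III, was at 892, 823 and 754 CPM after PBS and at 1802, 1373 and 1251 after IL-17A (0.84 ± 0.14, 0.0126). After IL-36γ it was at 0.34 ± 0.14 (0.084) and after both at 0.30 ± 0.14 (0.099).

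The other subunits of complex I were mt-Nd1, mt-Nd2 and mt-Nd4. mt-Nd1 rose after IL-17A (0.79 ± 0.14, adjusted p = 0.0151) and after both (0.47 ± 0.14, 0.0179), with 0.37 ± 0.14 (0.0706) after IL-36γ. mt-Nd2 rose after IL-17A (0.97 ± 0.17, 0.0151), with 0.35 ± 0.17 (0.139) and 0.33 ± 0.17 (0.128) after the other treatments. mt-Nd4 was measured at 193, 202 and 176 CPM after PBS, 453, 344 and 284 after IL-17A, 274, 204 and 250.1 after IL-36γ, and 209.5, 215 and 196 after both. It rose after IL-17A (0.92 ± 0.15, 0.0126), and the libraries of both cytokines overlapped PBS (0.12 ± 0.15, 0.535). mt-Nd6 is encoded on the opposite strand from the other genes. It was at 53.5, 35.2 and 35.98 CPM after PBS and at 61.1, 55.2 and 57.7 after IL-17A (0.48 ± 0.25, 0.205), and whether the counting used strand was not given in the sources used here.

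Without PBS replicate 3, no mitochondrial gene was called after IL-17A (0.0965% of all genes raised), and without IL-17A replicate 1, 3 were called (0.333%). After IL-36γ 2 of 11 were called, all raised and among the 7 readable genes (17.3% of all genes raised). After both, 3 of 11 were called, all raised and among the same 7 (23.7%). With IL-17A replicate 1 left out, these counts were 5 and 5. Without PBS replicate 2, and likewise without PBS replicate 3, each was 1. The count after IL-36γ was also 1 without IL-17A replicate 2 or any 1 of the IL-36γ libraries. That after both was 1 without the second library of this group. Over all genes, 10.2% to 16.9% were raised after IL-36γ in these fits and 18.2% to 22.6% after both.

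**Figure D4:**
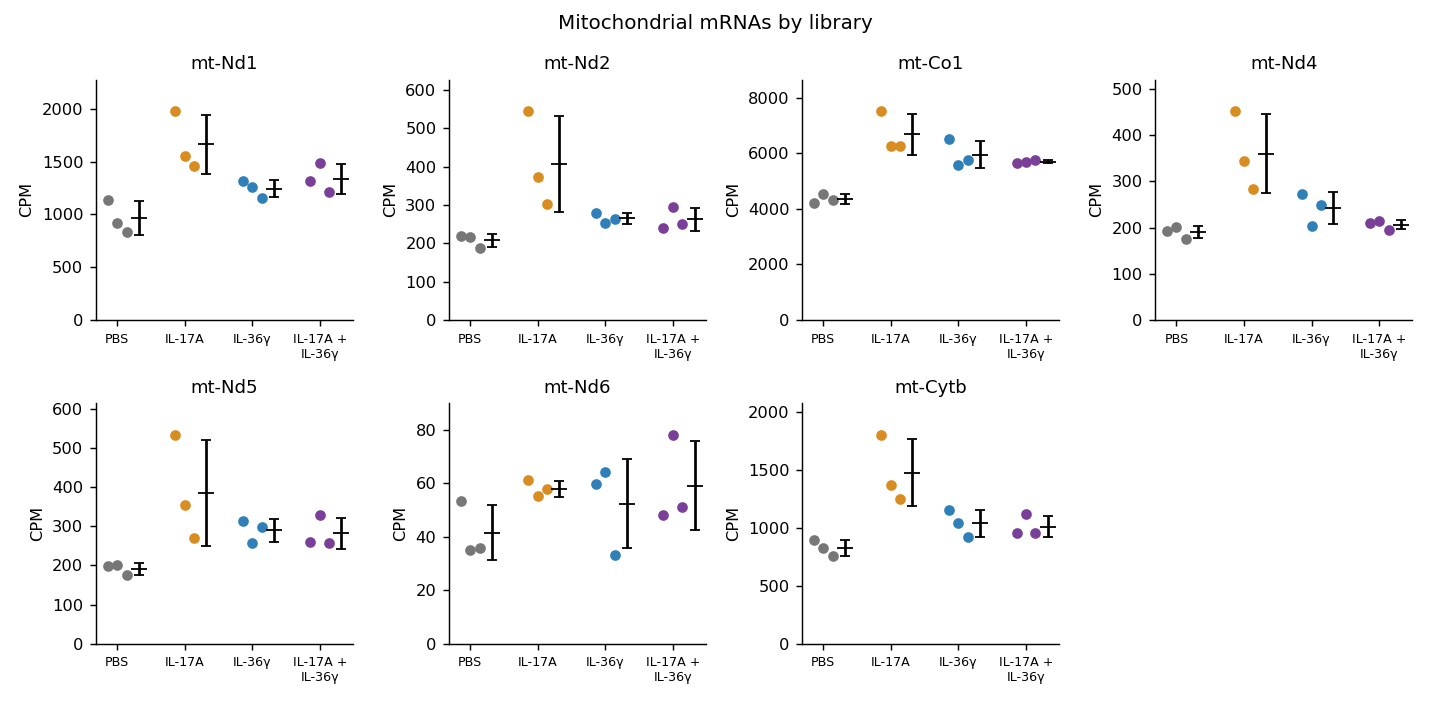
CPM of the 7 readable mitochondrial mRNAs in each library (points, mice; bars, mean ± SD, n = 3). IL-17A replicate 1 is the highest library for 6 of the genes, as for mt-Co1 at 7517 CPM against 4205 to 4536 after PBS, while mt-Nd6 is highest in 1 library of both cytokines (78.1 CPM).

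The question of what IL-36γ adds to IL-17A was read from the group of both against IL-17A. Against IL-17A alone, 12 of 92 nuclear members were raised (15.1% of all genes) and 8 were lowered (17.7% of all genes), with a median of 0.03. The raised ones were led by Ndufa4l2 (1.12 ± 0.31, adjusted p = 0.0157), Ndufa4 (0.47 ± 0.13, 0.0155), Uqcrq (0.39 ± 0.14, 0.0456) and Atp5b (0.38 ± 0.08, 0.00531). The lowered ones were Cox7a1, Cox8b, Cox6a2, Cox4i2, Cox7a2l (-0.42 ± 0.09, 0.00367), Ndufa13 (-0.35 ± 0.08, 0.00663), Ndufb11 (-0.35 ± 0.10, 0.0196) and Ndufa6 (-0.34 ± 0.11, 0.0271). Of the mitochondrial genes, none was raised and 3 were lowered: mt-Nd4 (-0.80 ± 0.15, 0.00228), mt-Nd2 (-0.63 ± 0.17, 0.0141) and mt-Cytb (-0.55 ± 0.14, 0.0105). The shares of nuclear members called were at or below those of all genes. A 2-fold change was passed by 4 nuclear members (8.95% of all genes). The nuclear count was 3 with a skeletal muscle score as a covariate and 3 without the 3 libraries of lowest muscle markers. It was 4 without IL-17A + IL-36γ replicate 1, 7 without IL-17A replicate 2 and 12 without IL-17A replicate 3. Calls over all genes were 6355 of 19408 in the main fit, 2951 with the covariate and 2681 of 20369 without the 3 libraries. In the fits that left out 1 library they were 4568 of 19778, 4114 of 19802 and 5262 of 19825, in the same order.

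Adding IL-17A to IL-36γ left no member past the test in either genome (edgeR; 0.0206% of all genes were called), and DESeq2 called none either. At an unadjusted p below 0.05 there were 6 nuclear and 0 mitochondrial members, and 2938 of all 19408 genes. The nuclear median was 0.07 and 74 of 92 lay above 0, as did 9829 of 19408 genes. The median standard error of a nuclear member was 0.10 on the log2 scale, and the log2 fold changes, none of them called, ran from -1.34 to 0.31.

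The interaction is the effect of both cytokines minus the sum of the single effects on the log2 scale. No nuclear member passed it (0.551% of all genes did), with 45 of 92 at an unadjusted p below 0.05, against 4373 of all 19408 genes. Of the nuclear members, 90 of 92 lay below 0, as did 11371 of 19408 genes, at a median of -0.30 against -0.07. DESeq2 called 18 nuclear members (1797 of 50684 genes). mt-Nd4 was the 1 member that passed in edgeR (-1.15 ± 0.21, adjusted p = 0.0475), and all 7 readable mitochondrial genes were below 0. Without PBS replicate 1, which had low muscle markers, 24 nuclear and 5 mitochondrial genes were called. Calls over all genes then rose from 107 of 19408 to 1534 of 19751. Each other single omission gave at most 1 nuclear or mitochondrial gene.

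A few subunits of complex IV have a form found mainly in heart and skeletal muscle, and 3 of these were among the members lowered in the group of both cytokines against IL-17A. Cox7a1, the muscle partner of Cox7a2, was measured at 1.69, 8.95 and 7.85 CPM after PBS, 9.28, 9.18 and 8.85 after IL-17A, 5.66, 3.41 and 4.65 after IL-36γ, and 1.83, 0.878 and 3.41 after both. The group of both cytokines overlapped PBS through PBS replicate 1 only. It was lowered against PBS (-1.58 ± 0.53, adjusted p = 0.0311) and against IL-17A (-2.14 ± 0.54, 0.0102). Cox8b, the muscle partner of Cox8a, was at 1.44, 10.4 and 9.12 CPM after PBS and at 2.19, 0.695 and 4.75 after both (-1.44 ± 0.64, 0.0874), and it was lowered against IL-17A (-2.05 ± 0.65, 0.0294). Cox6a2, the muscle partner of Cox6a1, was at 3.05, 21.9 and 15.4 CPM after PBS and at 4.41, 1.94 and 9.50 after both (-1.34 ± 0.61, 0.0938), and it was lowered against IL-17A (-1.73 ± 0.61, 0.0481).

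Their widely expressed partners were mostly raised against PBS. Cox7a2 rose by 0.41 ± 0.10 (adjusted p = 0.0321), 0.33 ± 0.10 (0.0301) and 0.42 ± 0.10 (0.00636) after IL-17A, IL-36γ and both. Cox8a rose by 0.42 ± 0.11 (0.036), 0.45 ± 0.11 (0.0106) and 0.55 ± 0.11 (0.00166). Cox6a1 rose after IL-36γ (0.60 ± 0.13, 0.00651) and both (0.66 ± 0.13, 0.0018), with 0.39 ± 0.13 (0.0753) after IL-17A.

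The share of the muscle form was compared with the skeletal muscle markers in each library. Per kilobase, Cox6a2 made up 3.48%, 24.8% and 19.5% of Cox6a2 plus Cox6a1 in the PBS libraries, in which the markers summed to 446, 3466 and 3017 CPM. After both cytokines it made up 3.21%, 1.97% and 7.93%, with markers at 433, 268 and 1349 CPM. The order of the libraries was the same for both measures within these 2 groups, and so it was for the shares of Cox7a1 and Cox8b. In the IL-17A group, with markers at 2118, 2756 and 3046 CPM, the Cox6a2 share followed their order (13.8%, 15.8% and 18.5%). The shares of Cox8b (13.8%, 11.9% and 14.2%) and Cox7a1 (12.3%, 14.4% and 14.1%) did not. After IL-36γ, with markers at 2242, 1209 and 1889 CPM, the Cox6a2 share again followed their order (11.7%, 6.72% and 10.6%). The shares of Cox8b (7.96%, 6.19% and 11.4%) and Cox7a1 (8.52%, 5.79% and 8.64%) again did not. With the mean log2 CPM of the muscle markers as a covariate, the change of Cox6a2 against IL-17A was 0.12 (adjusted p = 0.744), that of Cox8b -0.23 (0.657) and that of Cox7a1 -0.56 (0.0975). Against PBS, the change of Cox7a1 with this covariate was -0.25 (0.36). Its call against PBS was lost in 6 of 23 alternatives, among them those without PBS replicate 2 or 3 or without IL-17A + IL-36γ replicate 1 or 2. The call of Cox8b against IL-17A was lost in 6 of 23, among them those without any 1 of the IL-17A libraries or without replicate 1 or 2 of both cytokines. That of Cox6a2 was lost in 13 of 23, among them those without PBS replicate 3, any 1 of the IL-17A or IL-36γ libraries, or replicate 1 or 2 of both cytokines. Of the 11 muscle markers, 3 were lowered after both cytokines against PBS (20.9% of all genes) and 7 against IL-17A (17.7% of all genes). All 11 lay below 0 in each comparison (10114 and 9785 of 19408 genes), at medians of -1.74 and -2.01. An unadjusted p below 0.05 in edgeR was reached by 9 and 10 of them (10152 and 8418 of 19408 genes).

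Cox4i2, the form of subunit 4 known from lung and hypoxia, was low: 2.16, 1.44 and 2.03 CPM after PBS and 0.975, 1.4997 and 1.24 after both (-0.60 ± 0.22, adjusted p = 0.0407). It overlapped PBS in 1 library. The call was lost in 12 of 23 alternatives, among them the fit without the 3 libraries of lowest muscle markers (-0.52, 0.249) and those without PBS replicate 1 or 3, IL-17A replicate 3, IL-36γ replicate 2 or 3, or IL-17A + IL-36γ replicate 1 or 3, and with the muscle covariate the change was -0.74 (0.0387). Cox6b2, known from testis, was at 0.554 to 1.31 CPM in all libraries and passed no test. Ucp1, the marker of brown fat, was at 0 to 0.334 CPM.

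**Figure D5:**
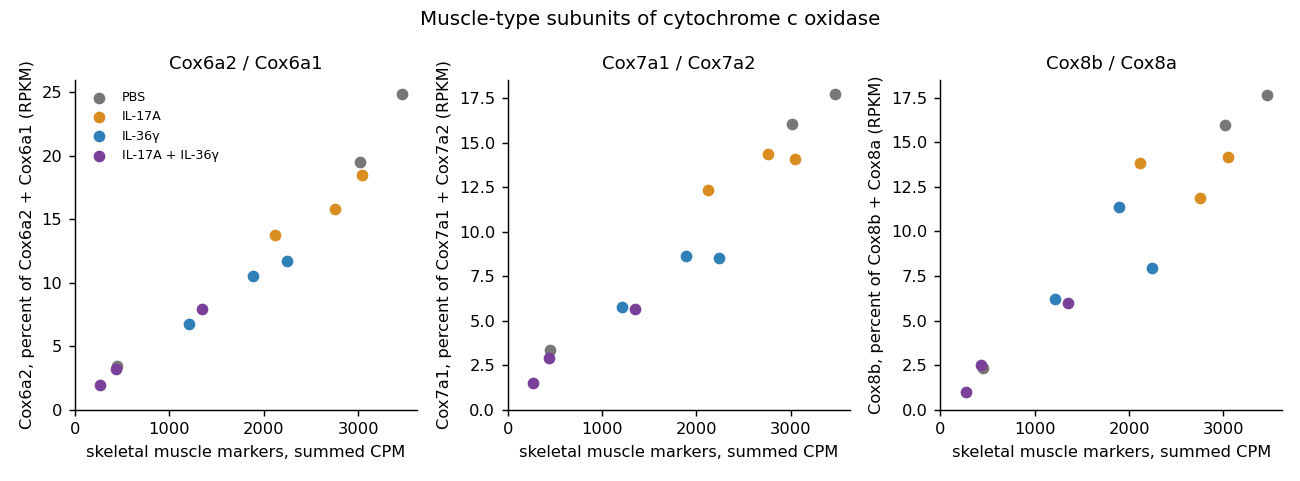
Share of the muscle form within 3 pairs of complex IV subunits (percent of summed RPKM) against the summed CPM of 11 skeletal muscle markers in each of the 12 libraries, coloured by group. PBS replicate 1 (446 CPM) sits among the libraries of both cytokines (268 to 1349 CPM), away from the other PBS libraries (3017 and 3466 CPM).

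With the muscle score as a covariate, the counts of raised nuclear members were 68, 67 and 60 in the same order of treatments. In the main fit they were 59, 60 and 70. Of all genes, 15%, 20.8% and 17.8% were raised with the covariate, and 7.44%, 17.3% and 23.7% in the main fit. Without the 3 libraries of lowest muscle markers the counts were 67, 66 and 50, with 11.4%, 19% and 14.5% of all genes raised. After both, 7 of 7 neutrophil, 5 of 6 macrophage and 3 of 6 keratinocyte markers were raised, where 23.7% of all genes were. The keratinocyte markers were mixed, with log2 fold changes from -0.09 to 4.21 and 1 of them below 0. The summed keratinocyte markers were lowest in PBS and highest in the group of both, as were the nuclear members, and the part of these cell types in the rise of the members was not tested. Removing the trend of each library with exonic gene length gave 57, 60 and 68 raised nuclear members, with 7.14%, 18% and 25.4% of all genes raised.

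The upstream 250 bases of 77 of the 95 nuclear members were held in the RefSeq table (GRCm38.p6), as 82 promoters. The letters GCGCA, any 1 base and GCGC, in this order, which are those of nuclear respiratory factor 1 (NRF1), a regulator known for respiratory genes, were searched. They were found on either strand in 18.3% of these promoters and in 5.18% of the 21262 promoters of all protein-coding genes. For the ETS letters CCGGAAG the shares were 17.1% and 8.98%, for the SP1 letters GGGCGG 39.0% and 42.6%, for the YY1 letters AANATGGCG 3.66% and 1.34%, and for the E-box CACGTG, a palindrome, 8.54% and 6.63%. These are matches of letters and not sites shown to be bound. Of the members that hold them, 4 are shown, with the match in capitals: a raised subunit of complex IV, 1 of complex I, the flavoprotein of complex II, which moved little, and an assembly factor, which did not pass the test.
Cox6a1 (chr5:115349041-115349100, minus strand): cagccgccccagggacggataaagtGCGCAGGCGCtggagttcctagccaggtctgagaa
Ndufs6 (chr13:73328483-73328542, minus strand): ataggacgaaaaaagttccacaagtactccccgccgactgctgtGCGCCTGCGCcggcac
Sdha (chr13:74350241-74350300, minus strand): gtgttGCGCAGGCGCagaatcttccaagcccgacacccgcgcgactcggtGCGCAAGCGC
Ndufaf4 (chr4:24897945-24898004, plus strand): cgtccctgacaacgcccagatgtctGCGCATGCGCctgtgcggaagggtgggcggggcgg
The match began 117 bases before the start in Cox6a1, 16 in Ndufs6, 10 in Sdha for the nearest of its 3 matches, of which the shown bases hold the nearer pair, and 113 in Ndufaf4. Cox6a1 holds another match, 162 bases before the start and outside the shown bases. Of the 14 tested members with the letters, 11 were raised after both cytokines, at a median of 0.45, and of the 61 without, 45, at a median of 0.40. After IL-36γ the counts were 10 of 14 and 40 of 61, and after IL-17A 10 of 14 and 39 of 61. The counts with and without the letters were not compared by a test.

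Other mitochondrial genes were counted from lists, to be read against 7.44%, 17.3% and 23.7% of all genes raised and 3.49%, 11.1% and 20.9% lowered in the comparisons of IL-17A, IL-36γ and both with PBS. Of 77 tested mitochondrial ribosomal proteins, which translate the mitochondrial mRNAs, 26, 31 and 47 were raised in the 3 comparisons with PBS, taken in the same order, with 1 lowered by both. Of 12 enzymes of the tricarboxylic acid cycle, 4, 6 and 9 were raised and none was lowered. Mdh2, malate dehydrogenase, rose by 0.39 (adjusted p = 0.0313), 0.37 (0.0153) and 0.54 (0.00101). Of 6 electron carriers and their helpers, 2, 1 and 4 were raised, among them Cycs, cytochrome c itself, after IL-17A (0.51, 0.0234) and both (0.33, 0.0306). Of 26 other assembly factors, 3, 3 and 6 were raised and 1, 1 and 2 lowered. Uqcc2, a factor of complex III, was raised in each (0.46, 0.0277; 0.56, 0.00344; 0.77, 0.000222), and Ttc19, another factor of complex III, was lowered in each (-0.36, 0.0488; -0.53, 0.00384; -0.51, 0.00239).

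Of 8 regulators of mitochondrial biogenesis, IL-17A left none called, IL-36γ raised 1 and lowered 1, and the pair raised 1 and lowered 3. Esrra, a nuclear receptor that acts on respiratory genes, rose after IL-36γ (0.36 ± 0.08, adjusted p = 0.00632) and both (0.44 ± 0.08, 0.00103). Ppargc1a, its coactivator, was at 2.30, 6.80 and 5.33 CPM after PBS and at 1.37, 1.76 and 2.98 after both (-1.23 ± 0.36, 0.0153), with the lowest PBS value in the library of low muscle markers. Esrrg (-0.85 ± 0.30, 0.0369) and Ppara (-0.94 ± 0.13, 0.000166) were lowered too. Nrf1 was at 0.14 ± 0.06 (0.0807) after both.

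The machinery that makes and matures mitochondrial RNA mostly did not pass the test, with 1 of 12 genes raised by either cytokine alone, and 2 raised and 2 lowered by the pair. Tfam, which packs mitochondrial DNA and starts its transcription, was at 29.6, 27.5 and 26.7 CPM after PBS and 28.6, 30.7 and 30.5 after IL-17A (0.10 ± 0.07, adjusted p = 0.393). The polymerase Polrmt was at 0.00 ± 0.11 (0.992). Slirp, which stabilizes mitochondrial mRNA, was the member raised in each comparison (0.43 ± 0.10, 0.0294; 0.50 ± 0.10, 0.00495; 0.59 ± 0.10, 0.000812).

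Of 6 genes of uncoupling and of the membranes, 4 were raised in each comparison with PBS. Ucp2, a carrier of the inner membrane related to the uncoupling protein, rose from 47.4, 59.5 and 55.3 CPM after PBS to 83.4, 73.0 and 69.0 after IL-17A, 96.6, 96.0 and 98.8 after IL-36γ, and 96.8, 96.8 and 95.9 after both. PBS lay apart from all other groups (0.48 ± 0.09, adjusted p = 0.0153; 0.85 ± 0.09, 8.07e-05; 0.84 ± 0.09, 3.81e-05). The exchangers of ADP for ATP split by form after both: Slc25a5, the common one, rose (0.92 ± 0.13, 0.000237) and Slc25a4, the one of muscle and heart, fell (-0.49 ± 0.18, 0.0394).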

How the data were processed

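RNA-Seq of ear skin of 12 mice was analysed, with 3 libraries in each of 4 groups taken from the sample titles. Per the study's methods and the submitters' processing notes, the authors aligned paired reads to mm10 with STAR 2.5.2b and counted them per gene with featureCounts of Subread 1.5.1, and the deposited counts are not normalized. Strand and multi-mapping settings and the annotation release were not given in the sources used here. The deposited tables of DESeq2 1.30.0 hold the authors' fold changes and p-values for 5 comparisons. They served to pair identifiers with symbols, and none of their other values was used.

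Genes were placed with GENCODE vM21 (GRCm38). Windows of 76 bases were compared between all its transcripts, and promoters came from RefSeq GRCm38.p6. Counts were analysed in R 4.3.3 with edgeR 4.0.16 (filterByExpr with a minimum count of 10, TMM, quasi-likelihood test, 1 fit of 12 libraries, Benjamini-Hochberg over 19408 genes), and DESeq2 1.42.0 was an alternative. The procedure was tested on simulated data. CPM are counts scaled by TMM, and RPKM divide them by exonic length. Library totals were 25293468 to 34759293 counts, and counting error is part of the spread the test estimates. Libraries of a group were not copies of each other (chi-square per gene 6.56 to 58.4). Each mouse gave 1 library.

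The genes named are the mitochondrial members, the subunits with tissue-restricted forms, 10 core subunits, the 4 highest and 4 lowest called nuclear members of each comparison, the called members of the interaction and genes of the companion lists. Sdhc, Sdhd, Ndufa6, Ndufa13, Ndufb11, Ndufs6, Ndufaf2, Ndufaf4 and Ndufaf8 were named after their values were seen. The members and lists were chosen with earlier results of these data known. Alternatives covered scaling, filters, test, covariates and left-out libraries.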

Additional observations from a re-analysis of the deposited data

Results flagged for a closer look

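The interaction term asks whether the effect of IL-17A differs between mice given IL-36γ and mice not given it. By this term of the edgeR fit, mt-Nd4 was the 1 member called (-1.15 on the log2 scale, SE 0.21, adjusted p = 0.0475). Alone, IL-17A raised it in 3 of 3 mice above all PBS libraries, and together with IL-36γ its libraries (196 to 215 CPM) lay below all IL-17A libraries (284 to 453 CPM). The value was between -1.30 and -0.91 in the 21 alternatives that gave one. It passed the threshold in 9 of them and missed it in 12, with adjusted p from 2e-05 to 0.148. Of its 76-base windows, 61.5% are shared with a copy on chromosome 1, and its part in this value was not tested. The sign of the interaction was not particular to mt-Nd4. All 7 readable mitochondrial genes were below 0, at a median of -0.88, and 6 of them had an unadjusted p below 0.05 in edgeR. Over all genes these counts were 11371 and 4373 of 19408. Groups of 3 libraries were not searched for single outlying samples.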

How the results depend on the processing

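The nuclear counts of 59, 60 and 72 called members against PBS, and the mitochondrial counts of 6, 2 and 3, stayed within 1.5 times under most settings. The mitochondrial counts here include the tested genes that could not be read. With a 2-fold threshold added, the nuclear counts were 0, 1 and 3, and 4 against IL-17A, and the mitochondrial ones 1, 0 and 0, and 0 against IL-17A. Fitting only the PBS and IL-17A libraries gave 0 nuclear and 0 mitochondrial calls. Scaling by library size alone gave 30 nuclear calls after IL-17A, 1 mitochondrial call after IL-36γ and 0 in the interaction. It moved the median of all genes to -0.13, -0.16 and -0.17 in the 3 comparisons with PBS, and the nuclear members to 0.20, 0.19 and 0.25. In the interaction the nuclear count of 0 became 18 with DESeq2 and 3 with the muscle covariate. The mitochondrial count of 1 became 6 with DESeq2, 0 with RLE size factors, 5 without a filter and 3 with the muscle covariate. Over all genes the 107 calls became 1797 with DESeq2, 38 with RLE size factors, 462 without a filter and 317 with the muscle covariate. That covariate gave 3 nuclear calls against IL-17A and 1 mitochondrial call after both. Calls over all genes then went from 6355 to 2951 and from 8664 to 6148. Leaving out the 3 libraries of lowest muscle markers (chosen after seeing the data) gave 3 nuclear and 1 mitochondrial call against IL-17A. It gave 0 mitochondrial calls after both and 0 in the interaction. Calls over all genes were then 2681, 5260 and 52 of 20369 in these comparisons. Cox6a2 against IL-17A reversed to 0.12 with the muscle covariate. Removing the length trend, also chosen later, changed none of these counts by over 1.5 times. The nuclear share after IL-17A, a log2 ratio of 0.18 to PBS, was 0.23 over protein-coding counts. The causes were not tested.

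Leaving out 1 library gave 0 to 69 nuclear calls after IL-17A, 39 to 67 after IL-36γ, 62 to 75 after both, 4 to 25 against IL-17A, 0 against IL-36γ and 0 to 24 in the interaction. For mitochondrial members the ranges were 0 to 6, 1 to 5, 1 to 5, 2 to 4, 0 and 0 to 5. Of all genes, 0.0965% to 15.2% were raised after IL-17A in these fits, 10.2% to 21.7% after IL-36γ and 18.2% to 25.8% after both. Against IL-17A, calls over all genes ranged from 4114 to 7245. Of 1801 values of named genes under alternatives, 1534 kept direction and side of the threshold, 266 lost the call and 1 reversed.

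With the replicate number as a block, 21 nuclear and 5 mitochondrial members were called in the interaction, where calls over all genes rose from 107 to 883. After IL-36γ the block gave 4 mitochondrial members, with 19.2% of all genes raised. Deviations of same-numbered libraries correlated at -0.20 to 0.35 over 18 pairs, and 8 of 12 libraries correlated best with their own number. What the number stands for was not given in the sources used here, and a structure shared by same-numbered libraries was not tested.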
